A study of Mus musculus with 24 samples.

Results

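Translation initiation factors are the proteins that bring the small ribosomal subunit, the initiator tRNA and a capped mRNA together at a start codon. Their mRNAs were measured in cultures of the mouse hepatocyte line MMH-D3 after a serum shock, a pulse of serum that aligns circadian clocks. A gene belonged to the set where the array's annotation gave its probe set a single symbol that starts with Eif1 to Eif6, which takes in the kinases named Eif2ak and the exchange factor subunits named Eif2b. Eif4ebp1 was left to a list of partners. This gave 46 genes of 18193 on the array, each read from its probe set of highest mean. Of these, 43 passed the filter of a log2 value of at least 5 on at least 6 arrays, as did 9825 genes in all. Initiation factor genes that no probe set names alone were not analysed here.

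The samples formed 1 course of 24 arrays, sampled every 2 h from 12 to 58 h after the shock, with 1 array per time point. All 24 shared the line, 14 days of differentiation in medium with 2% DMSO, and the serum shock, so no unshocked or undifferentiated control entered any comparison. MMH lines are immortalized and come from the livers of mice that carried a constitutively active human MET transgene, so the cells are a model of hepatocytes and not liver tissue. Comparisons are between hours of the course, in blocks of 8 h with 4 arrays each, and between the fitted course and its scatter. The labels do not say whether the arrays came from separate cultures, so the p-values measure the scatter of these arrays, which may be technical in part. The stated purpose was a circadian time course, and the questions asked of these genes were which cycled over 24 h, which drifted over the 46 h and which changed between blocks.

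As background, initiation begins when eIF2, loaded with GTP, carries the initiator tRNA to a small ribosomal subunit that holds eIF1, eIF1A, eIF3 and eIF5. The complex is recruited to the cap by eIF4F, made of the cap-binding protein eIF4E, the scaffold eIF4G and the helicase eIF4A, and 4E-binding proteins block eIF4E when mTOR signalling is low. After start codon recognition eIF2 leaves with GDP and is recharged by eIF2B, while eIF5B joins the large subunit. Kinases of the Eif2ak family phosphorylate eIF2 under amino acid, endoplasmic reticulum, heme or viral stress, which blocks eIF2B, lowers general translation and favours translation of the transcription factor ATF4.

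Promoter sequence was taken from RefSeq (GRCm38.p6) for 5 members that the results turn on, each printed 5′ to 3′ from 120 bases before to 30 bases after the annotated start. Eif2s2 and Eif3c were among the members of largest change at 44 h, Eif3a was the rhythmic member, Eif3f had the smallest p for a linear rise, and Eif2s3x held a stress-response motif. Capitals mark an E-box (CACGTG, the core site of the clock proteins CLOCK and BMAL1), the core of the amino acid response element bound by ATF4, or a pyrimidine run at the start.
Eif2s2: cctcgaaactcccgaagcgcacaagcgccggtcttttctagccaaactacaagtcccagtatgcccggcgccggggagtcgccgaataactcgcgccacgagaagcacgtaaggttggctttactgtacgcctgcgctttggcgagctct
Eif3c: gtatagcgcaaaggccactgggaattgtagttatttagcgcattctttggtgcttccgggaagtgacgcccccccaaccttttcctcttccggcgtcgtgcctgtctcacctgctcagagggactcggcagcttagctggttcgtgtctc
Eif3a: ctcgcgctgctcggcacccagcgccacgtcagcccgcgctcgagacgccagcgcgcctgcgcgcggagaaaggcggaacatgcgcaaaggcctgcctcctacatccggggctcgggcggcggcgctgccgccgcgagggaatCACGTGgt
Eif3f: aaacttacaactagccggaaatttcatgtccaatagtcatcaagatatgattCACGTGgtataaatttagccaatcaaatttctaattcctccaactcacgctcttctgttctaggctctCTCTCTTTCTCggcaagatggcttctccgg
Eif2s3x: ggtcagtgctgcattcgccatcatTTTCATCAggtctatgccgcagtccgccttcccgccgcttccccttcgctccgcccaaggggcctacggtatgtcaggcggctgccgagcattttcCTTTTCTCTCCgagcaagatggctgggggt
The stretches are Eif2s2 at chr2:154892877-154893026 (minus strand), Eif3c at chr7:126566337-126566486 (minus strand), Eif3a at chr19:60790664-60790813 (minus strand), Eif3f at chr7:108934295-108934444 (plus strand) and Eif2s3x at chrX:94212622-94212771 (minus strand). Motifs were sought in windows of 300 bases, 250 before to 50 after the start, which were on hand for 36 of the 43 members. The palindrome CACGTG stood in windows of 9 of these 36 members and in 7.15% of all 32851 windows of that length, some members having several windows. In Eif3a it lay at positions 23 to 28 after the start, and in Eif3f at -68 to -63. The amino acid response element core, TGATG followed by any base and then AA on either strand, stood in 3.97% of all windows and in 1 member, Eif2s3x, at -96 to -89 on the minus strand of the gene. Of the 9 members with a window that rose at 44 h, 2 had an E-box, Eif3a and Eif5a2. A start at C followed by at least 4 further C or T, the mark of mRNAs controlled by mTOR, was annotated in 2.51% of all windows and in 2 members, Eif3f and Eif2s3x, each with a run of 11. The motifs shared no base in the printed stretches, and a match describes letters, not binding.

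The arrays differed little as a whole. The median log2 value of the probe sets past the filter was 9.07 on average for the arrays of 36 to 42 h and 9.13 for those of 44 to 50 h. It ranged from 8.96 at 40 h to 9.14 at 46 h. The array of 40 h carries a suffix in its label that the others lack, and its 18S ribosomal RNA probe set read 5.32, against 3.86 to 4.62 on the others. On the 42 h array 11 of the 43 members (25.6%) had their highest value, against 15.2% of all genes, and 4 (9.30%) had their lowest, against 6.98% of all genes. As for the labelled cell type, 7 of 10 hepatocyte markers passed the filter, with Alb at 15.97 on average, but Apoa2 stayed near the table's lowest value and 2 had no probe set of their own. All 4 bile duct markers and 3 of 5 macrophage markers also passed, while the fibroblast and endothelial lists lay below the filter and Ptprc and Adgre1 stayed at or under 2.55. In such bulk samples fewer cells of a type and less RNA per cell cannot be told apart.

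The members spanned mean log2 values from 5.04 (Eif5a2) to 15.67 (Eif5a), and most moved little. The SD over the 24 arrays had a median of 0.15 among members, against 0.19 over all genes past the filter, and 36 of the 43 covered a range under 1. On the probe set that stands for the gene, 30 of the 43 members (69.8%) passed at least 1 of the 5 tests at an adjusted p under 0.05, against 65.9% of all genes, a share near the background. The other 13 passed no test on that probe set and were Eif1ax, Eif2ak3, Eif2ak4, Eif3e, Eif3m, Eif4a1, Eif4e2, Eif4h, Eif5a and the eIF2B subunits Eif2b1, Eif2b2, Eif2b4 and Eif2b5. Of these 13, 7 had another probe set past the filter, and for 4 of them another set passed in the linear term. Both other sets of Eif3e rose over 46 h, by 0.34 (adjusted p = 1.18e-04) and 0.41 (6.59e-06), and both of Eif1ax fell, by 0.37 (6.65e-05) and 0.80 (2.19e-06). One other set each of Eif4a1 and Eif4e2 fell, by 0.22 (8.43e-04) and 0.29 (0.0235). Members below the filter were the Y-linked eIF2 gamma gene Eif2s3y and the exon junction helicase gene Eif4a3, both listed at the lowest value of the table, 2.17, on every array, and the cap-binding relative Eif4e3, which peaked at 4.12.

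**Figure D1:**
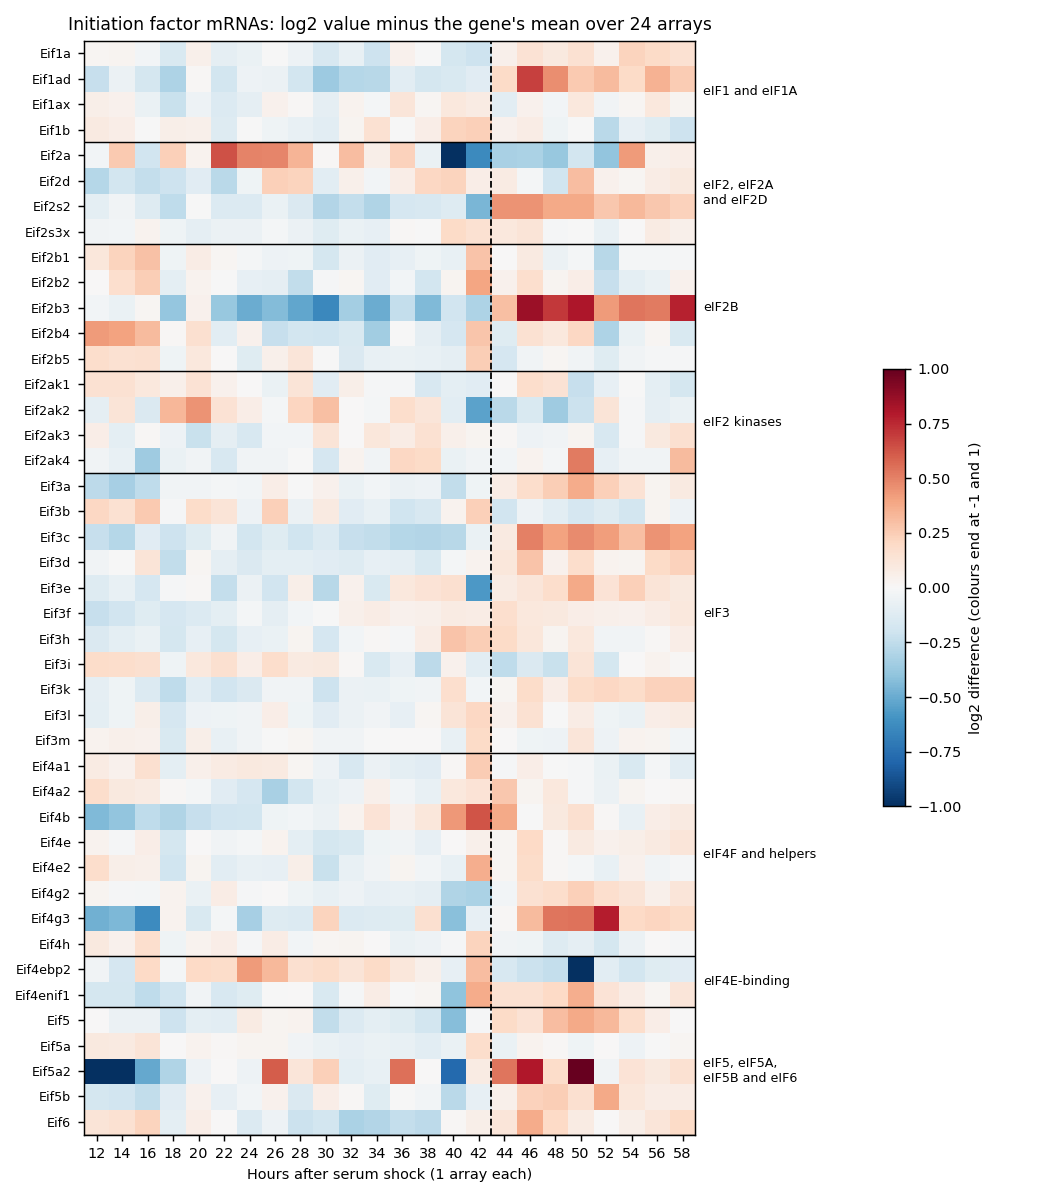
Each row is a member past the filter, grouped by complex, and each column an array by hours after serum shock; colour is the log2 value minus the gene's mean over the 24 arrays, with colours ending at -1 and 1. A block of higher values begins right of the dashed line at 44 h in Eif2b3, Eif2s2, Eif3c and Eif1ad, while most rows stay pale.

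Between the blocks on either side of 42 to 44 h 14 members (32.6%) were called, and between the first blocks of the course 3 (6.98%). All genes also had more calls at the step, 20.5% higher and 12.7% lower, than early, 6.95% higher and 6.12% lower. The border at 42 to 44 h was known from earlier results of these data. Its calls and counts without overlap therefore describe the step and are no independent test of it. Comparing 44 to 50 h with 36 to 42 h, 13 of the 43 members rose and 1 fell. The share that rose, 30.2%, compares with 20.5% of all genes, and the share that fell, 2.33%, with 12.7%. The median difference of the members was 0.05 log2 units, against 0.04 over all genes, so the median member moved about as much as the median gene. Without overlap between the 4 arrays on each side, 11 members lay higher (15.5% of all genes did) and 1 lay lower (8.89% of all genes did). All 8 arrays from 44 h lay above all 16 arrays before it for 4 members, 9.30%, against 6.06% of all genes. These 4 were Eif2b3, Eif2s2, Eif3c and Eif1ad, and no member lay below in that way, against 2.85% of all genes.

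At the stage of eIF2, the measured genes called at the step encode eIF2 beta and the gamma subunit of eIF2B. The alpha subunit gene Eif2s1 was not among the members, so its course is not known here. Eif2s2, which encodes eIF2 beta, read between 13.31 and 13.76 (median 13.62) on the 16 arrays up to 42 h. It read 13.60, 13.60, 13.64 and 13.31 at 36, 38, 40 and 42 h, and 14.21, 14.21, 14.15 and 14.15 at 44, 46, 48 and 50 h. The step therefore lay within a single 2 h interval and spanned 0.91, from the lowest to the highest value of the course. Part of this span is the low 42 h array, which lay below those of 36 to 40 h. The last 4 arrays, at 14.04, 14.09, 14.04 and 14.00, stayed above every array up to 42 h. The block difference was 0.64 ± 0.06 (SE of the fit), 1.56-fold, with an adjusted p of 4.23e-08. Its 4 other probe sets past the filter rose too, by 0.30 to 0.73. The other members of this stage did not pass at the step: the X-linked gamma subunit gene Eif2s3x had a difference of -0.04 ± 0.05, Eif2a, whose product is an alternative tRNA carrier, 0.10 ± 0.21, and Eif2d, whose product delivers tRNA without GTP, -0.10 ± 0.10.

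Within eIF2B only the gamma subunit gene passed at the step. Eif2b3, whose product pairs with the catalytic epsilon subunit, read 8.17 to 8.86 (median 8.46) up to 42 h. Its values were 8.58, 8.37, 8.62 and 8.50 at 36 to 42 h, then 9.12, 9.67, 9.53 and 9.62 at 44 to 50 h and 9.24, 9.35, 9.33 and 9.58 at 52 to 58 h. No array from 44 h on reached down to the earlier ones. The rise of 0.97 ± 0.13, or 1.95-fold (adjusted p = 5.35e-06), was the largest of any member at this step, and it rests on 1 probe set. The other 4 subunit genes had differences from -0.06 (the catalytic subunit gene Eif2b5) to 0.09 (the delta subunit gene Eif2b4), with standard errors of 0.08 to 0.11, and their adjusted p-values were 0.589 or higher. The eIF2 kinase genes did not pass either. Eif2ak1 (the heme-regulated kinase HRI) stood at 0.12 ± 0.08, Eif2ak4 (the amino acid sensor GCN2) at 0.05 ± 0.12, Eif2ak3 (PERK, of the endoplasmic reticulum) at -0.09 ± 0.07 and Eif2ak2 (PKR, activated by double-stranded RNA) at -0.16 ± 0.13, with adjusted p-values from 0.248.

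Of 11 measured eIF3 subunit genes, 3 rose and the rest did not pass. Eif3c, a core subunit gene, read 13.27 to 13.52 (median 13.36) up to 42 h. The values were 13.28, 13.27, 13.29 and 13.50 at 36 to 42 h and 13.65, 14.07, 13.97 and 14.03 at 44 to 50 h. The array at 42 h was already the highest of its block, and all 4 after it lay above. This gave 0.60 ± 0.07, 1.51-fold (adjusted p = 1.37e-06), and its 3 other probe sets rose by 0.51 to 0.85. Eif3a rose by 0.32 ± 0.07 (adjusted p = 9.28e-04) and the cap-binding subunit gene Eif3d by 0.21 ± 0.07 (adjusted p = 0.0238). The call for Eif3d was lost without the array of 38, 46 or 50 h, with a difference of 0.17 without 46 h. The other 8 subunit genes ranged from -0.11 ± 0.09 (Eif3b) to 0.23 ± 0.12 (Eif3e). A second probe set of Eif3e, at 0.23 ± 0.05, did pass (adjusted p = 0.00113), and another, at 0.12 ± 0.06, did not.

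Among genes of the eIF1 and eIF1A group, 2 of 4 rose. Eif1ad, whose protein has an eIF1A-like domain, read 9.04 to 9.42 (median 9.23) up to 42 h. It read 9.30, 9.23, 9.25 and 9.29 at 36 to 42 h and 9.59, 10.09, 9.87 and 9.67 at 44 to 50 h, without overlap, and 9.59 to 9.75 at 52 to 58 h. The difference was 0.54 ± 0.08, 1.45-fold (adjusted p = 4.69e-05), and its other probe set rose by 0.48. Eif1a, an autosomal gene for the scanning factor eIF1A, rose by 0.20 ± 0.06 (adjusted p = 0.0169), a call lost without the array of 40 h (0.16) or of 42 h. The X-linked counterpart Eif1ax stood at -0.08 ± 0.06 and Eif1b, a relative of the start codon selection factor eIF1, at -0.11 ± 0.07. A second probe set of Eif1ax fell by 0.25 (adjusted p = 6.33e-04), so the probe sets of that gene did not give the same call.

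At the cap, 2 measured scaffold genes rose and a repressor gene fell. The scaffold gene Eif4g1 was not among the members. Eif4g3 encodes an eIF4G scaffold and read 9.29 to 10.15 (median 9.79) up to 42 h. Values of 9.81, 10.08, 9.51 and 9.84 at 36 to 42 h were followed by 9.94, 10.24, 10.46 and 10.47, and the 38 h array lay above the 44 h one. The difference of 0.47 ± 0.15, 1.38-fold (adjusted p = 0.0243), no longer passed without the array of 40 h (0.37, adjusted p = 0.0966), 48 h or 50 h. Eif4g2, whose product lacks the site for eIF4E and serves translation without it, rose by 0.33 ± 0.06 (adjusted p = 1.16e-04). Its 2 other probe sets, at 0.14 (adjusted p = 0.0794) and 0.19 (0.111), did not pass. The cap-binding protein gene Eif4e had 0.10 ± 0.05 and its relative Eif4e2 -0.02 ± 0.09. Both other probe sets of Eif4e rose, by 0.28 (adjusted p = 0.00569) and, on a dim set with a mean of 5.59, by 0.75 (0.00296). The helicase genes Eif4a1 and Eif4a2 had 0.00 ± 0.06 and 0.06 ± 0.07, and the helicase cofactor genes Eif4b and Eif4h -0.15 ± 0.10 and -0.10 ± 0.06.

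Eif4ebp2, which encodes a 4E-binding protein that represses eIF4E, was the single member that fell. It read 10.04 to 10.62 (median 10.37) up to 42 h, with 10.31, 10.25, 10.12 and 10.51 at 36 to 42 h. At 44 to 50 h it read 10.04, 9.98, 9.96 and 9.17, all below the 4 before, and at 52 to 58 h 10.09, 10.01, 10.08 and 10.09. The difference was -0.51 ± 0.13, 1.42-fold lower (adjusted p = 5.00e-03), but the 50 h array stood apart, and without it the difference was -0.30, which still passed. With 2 arrays on each side of the border it was -0.30 ± 0.17 and did not pass (adjusted p = 0.22). A second probe set of the gene had -0.04 and another -0.56, the latter also called. The gene Eif4enif1, for the eIF4E transporter that moves eIF4E to the nucleus, had 0.22 ± 0.10 (adjusted p = 0.0953).

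Among factors of the late steps, 4 of 5 rose. Eif5, which encodes the activator of the eIF2 GTPase, read 12.72 to 13.22 (median 13.04) up to 42 h. It read 13.02, 12.96, 12.72 and 13.13 at 36 to 42 h, then 13.33, 13.29, 13.45 and 13.52, all above the 4 before, and returned to 13.14 by 58 h. The difference was 0.44 ± 0.08, 1.36-fold (adjusted p = 3.52e-04). Eif5b, the gene of the subunit-joining GTPase, rose by 0.27 ± 0.07 (adjusted p = 7.17e-03) and Eif6, whose product keeps the large subunit from joining early, by 0.30 ± 0.08 (adjusted p = 5.77e-03). A second, dim probe set of Eif6 did not move (-0.0006 ± 0.11).

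The hypusinated elongation and termination factor eIF5A is encoded by a pair of genes, and the difference between them was not tested. Eif5a stood at 0.00 ± 0.05 and kept within a range of 0.27 over the course. Eif5a2 was dim and reached a log2 value of 5 on 15 arrays. It read 3.52 to 5.65 (median 4.99) up to 42 h, with 5.59, 5.04, 4.26 and 5.12 at 36 to 42 h, and 5.58, 5.84, 5.22 and 6.05 at 44 to 50 h. The groups overlapped, since the 36 h array lay above those of 44 and 48 h. The difference of 0.67 ± 0.25, 1.59-fold (adjusted p = 0.0486), lost its call in 18 of 24 fits without 1 array and was 0.42 without 40 h.

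**Figure D2:**
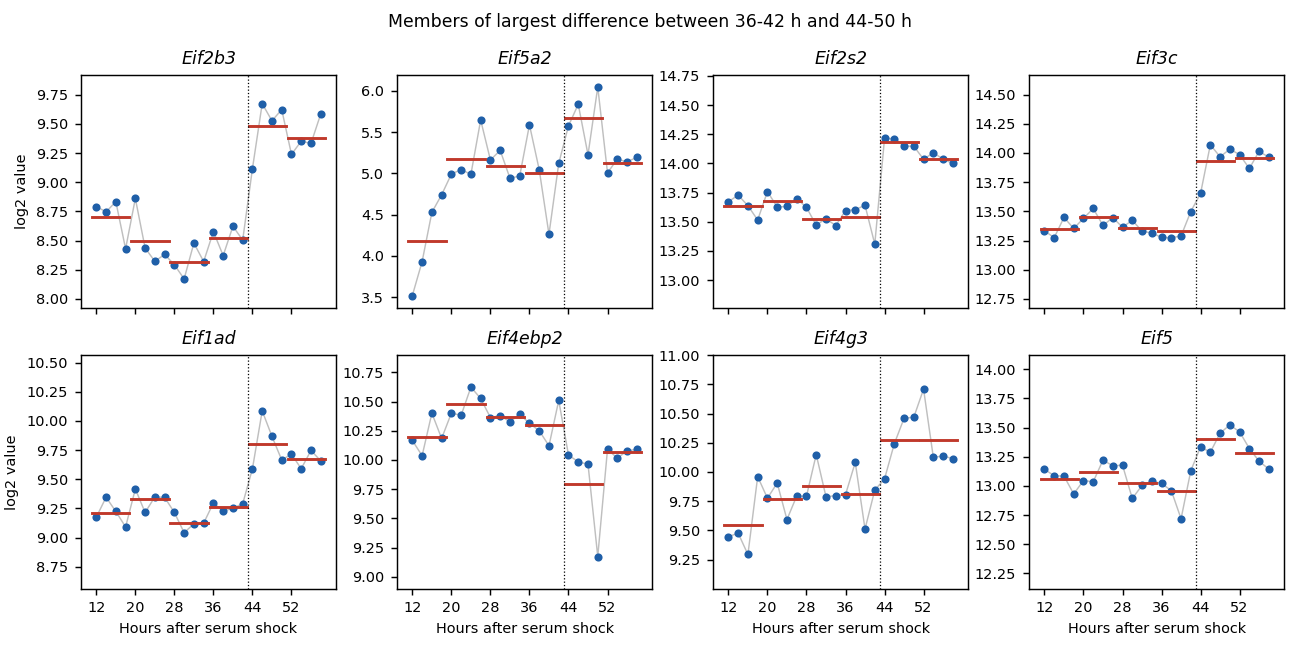
Points are the log2 values of 1 array each against hours after serum shock for the 8 members of largest called difference at 44 h, red lines are means of 4 arrays, the dotted line marks the border between 42 and 44 h, and each panel has its own axis. Eif2s2 steps by 0.91 between 42 h, its lowest array, and 44 h, Eif2b3 and Eif3c climb until 46 h, and the low point of Eif4ebp2 is the 50 h array at 9.17.

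**Figure D3:**
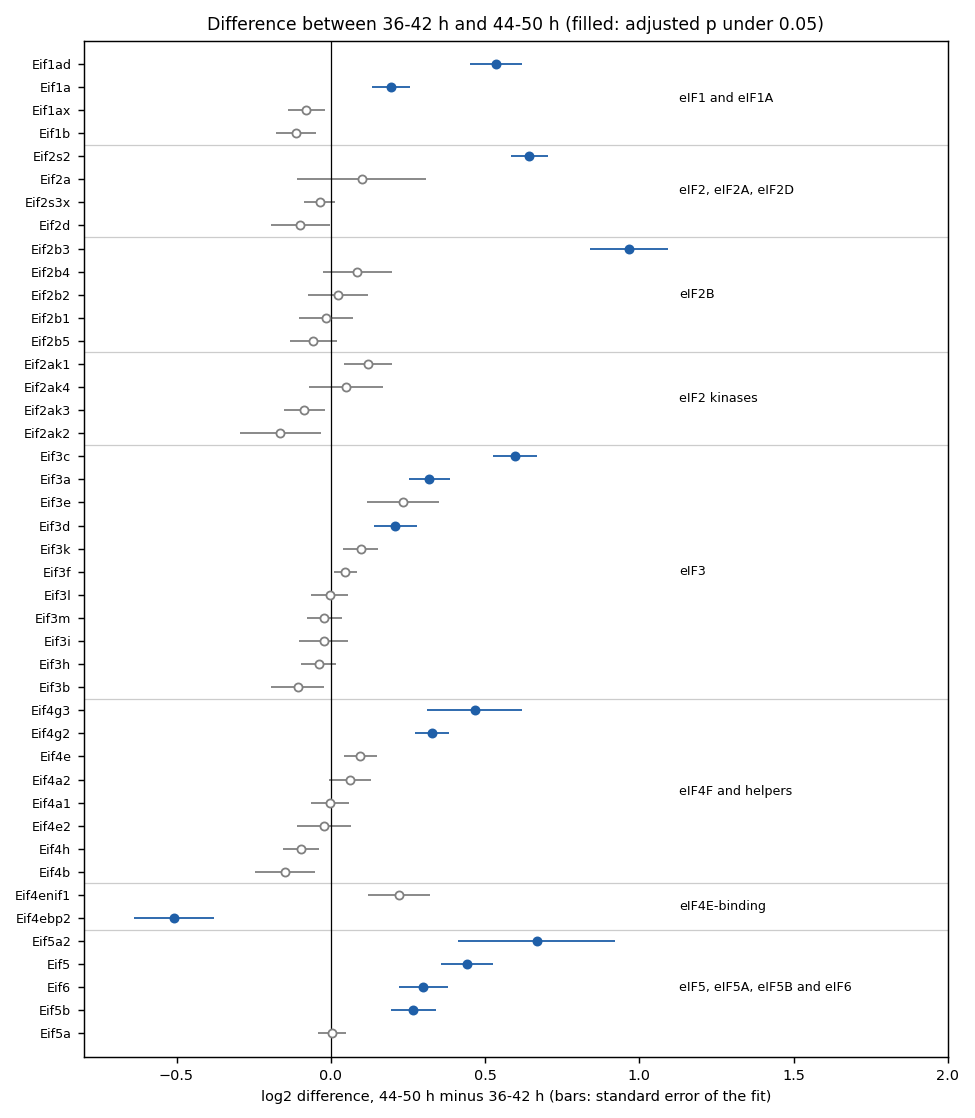
Points give the difference in log2 value between 44 to 50 h and 36 to 42 h for each of the 43 members, by complex, with bars for the standard error of the fit and filled points for an adjusted p under 0.05. The called members are spread over 7 of the 8 groups, and each eIF2B and eIF2 kinase gene other than Eif2b3 lies between -0.16 and 0.12.

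Other probe sets could be set beside 10 of the 14 members called at the step. Of these 10, 7 had another probe set called in the same direction. Over their 24 other probe sets, 23 had the same sign and 15 were called. Adding 24 h terms to the block means left 8 of the 14 calls. The other 6 no longer passed, with Eif4ebp2 at -0.50 (adjusted p = 0.068), Eif5 at 0.26 (0.0951), Eif3a at 0.14 (0.274), Eif5b at 0.16 (0.316), Eif5a2 at 0.40 (0.502) and Eif4g3 at 0.11 (0.763). Beside the step, the hepatocyte markers Alb, Ttr and Hnf4a fell by 0.41, 0.98 and 0.39 on the log2 scale, Rbp4 rose by 0.25, and the bile duct marker Krt19 fell by 0.26. The summed level of the hepatocyte list, on the log2 scale, lay between 16.83 and 17.11 at 36 to 42 h and between 16.46 and 16.85 at 44 to 50 h. That of the bile duct list lay at 15.69 to 16.06 before and 15.53 to 15.74 after, and that of the macrophage list at 14.68 to 15.13 and 14.68 to 14.93. The fibroblast list (5.05 to 5.07 over both blocks) and the endothelial list (4.17 to 4.19) lay near the bottom of the scale. The part of these markers in the members' changes was not tested.

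**Figure D4:**
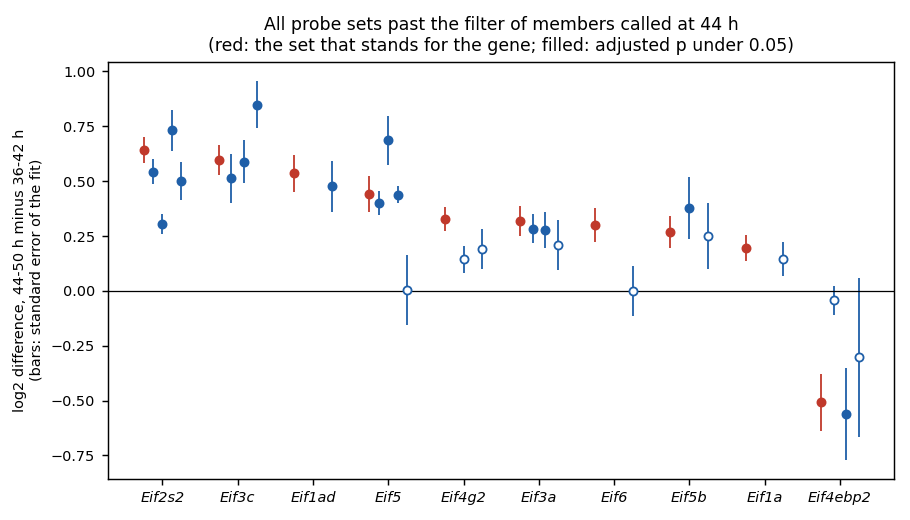
Each point is a probe set past the filter of a member called at 44 h that has more than 1 such set; the vertical axis is the log2 difference between 44 to 50 h and 36 to 42 h, with bars for the standard error of the fit, red for the set that stands for the gene and filled for an adjusted p under 0.05. All 5 sets of Eif2s2 and all 4 of Eif3c are filled, while the second sets of Eif6 and Eif4ebp2 lie near 0.

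Between hours 24 h apart, a cycle of 24 h and constant amplitude cancels. Other periods and damped cycles were not tested. Comparing 52 to 58 h with 28 to 34 h, 12 members (27.9%, against 21% of all genes) were higher and 1 (2.33%, against 15.3%) was lower, with a median difference of 0.06 against 0.03 over all genes. Of these 13 members, 10 had also risen at the step. The 5 of smallest adjusted p were Eif2s2 at 0.52 ± 0.06 (7.79e-07), Eif3c at 0.60 ± 0.07 (8.69e-07), Eif2b3 at 1.06 ± 0.13 (1.00e-06), Eif1ad at 0.55 ± 0.08 (2.40e-05) and the eIF3 subunit gene Eif3k at 0.30 ± 0.06 (2.60e-04). Eif3k and Eif4e (0.19 ± 0.05) were higher here without having passed at the step. Eif1b was the one lower member, at -0.17 ± 0.07 (adjusted p = 0.0477), opposite to Eif1a (0.28) and Eif1ad of its group, and its call was lost in 16 of 24 fits without 1 array. Eif3d lost its call without 58 h (0.19), Eif5 without 30, 52 or 54 h (0.20 without 52 h) and Eif5b without 28, 34 or 52 h (0.13 without 52 h).

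Over the whole 46 h, 18 members (41.9%, against 26.3% of all genes) rose and 6 (14.0%, against 16.4%) fell in the linear term. The median change was 0.18 log2 units over 46 h for members and 0.07 for all genes. Of these 24 calls the eIF3 complex held 9, with 7 of its 11 measured genes rising and 2 falling. The smallest adjusted p-values of any member were those of eIF3 subunit genes. Eif3f, a core subunit gene, rose by 0.32 ± 0.05 over 46 h (1.02e-05), Eif3k by 0.41 ± 0.06 (1.88e-05), Eif3c by 0.68 ± 0.12 (8.84e-05), Eif3a by 0.30 ± 0.06 (2.13e-04) and Eif3h by 0.33 ± 0.06 (2.55e-04).

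The shapes behind these slopes differed. Eif3f climbed gradually, with block means of 13.50, 13.59, 13.70, 13.74, 13.79 and 13.75. Eif3k kept to 12.81, 12.82 and 12.85 until 34 h and then moved through 12.96 and 13.05 to 13.15. Eif3h rose to 13.66 at 36 to 42 h and read 13.51 at 52 to 58 h. Against the rest of the complex, Eif3i and Eif3b fell by 0.32 and 0.27. Eif3i fell from 13.67 at 12 to 18 h to 13.43 at 44 to 50 h, but its second probe set had 0.07 ± 0.10. Eif3b lost its call without the array of 12, 26 or 44 h.

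Outside eIF3, the helicase cofactor gene Eif4b rose by 0.65 ± 0.13 (adjusted p = 3.48e-04), through block means of 11.83, 12.01, 12.20 and 12.48 up to 42 h, and then stood at 12.33 and 12.20. Its single highest array was that of 42 h, at 12.80, and 2 other probe sets rose by 0.61 and 0.78. The eIF4E transporter gene Eif4enif1 rose by 0.38 ± 0.10 while Eif4ebp2, its partner in the 4E-binding group, fell by 0.47 ± 0.19. The latter call was lost in 17 of 24 fits without 1 array, and the second probe set of Eif4ebp2 had 0.15. Eif2a fell by 0.79 ± 0.22, opposite to Eif2s2, Eif2s3x and Eif2d of its group, from a probe set that may cross-hybridize by its type, and the other probe set of Eif2a had 0.16 ± 0.10. The sets that stand for Eif2s3x, Eif2b2 and Eif3e are of that type too. Other sets of Eif2s3x had 0.07 (adjusted p = 0.163) and 0.17 (0.11) and did not pass. In the kinase group, Eif2ak2 fell by 0.43 ± 0.14 and Eif2ak1 by 0.21 ± 0.08, the latter lost in 15 of 24 fits without 1 array. Eif2d was lost in 16, Eif4e in 8, and Eif5a2 without 12 h.

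Part of the linear calls rest on the hours from 44 h. Without those 8 arrays 11 members were called, 5 higher (11.6%, against 16.4% of all genes) and 6 lower (14.0%, against 15.6% of all genes), and 8 of them were among the 24. Those not among the 24 were Eif2b4 (slope per 46 h -0.61, adjusted p = 0.036), Eif4g2 (-0.41, 1.77e-03) and Eif6 (-0.41, 0.0319), all lower. The slopes of Eif2b3, Eif2s2, Eif3c, Eif3d, Eif4e and Eif4ebp2 then had the opposite sign, from -0.45 for Eif2b3 to 0.20 for Eif4ebp2, each with an adjusted p of 0.0701 or more.

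**Figure D5:**
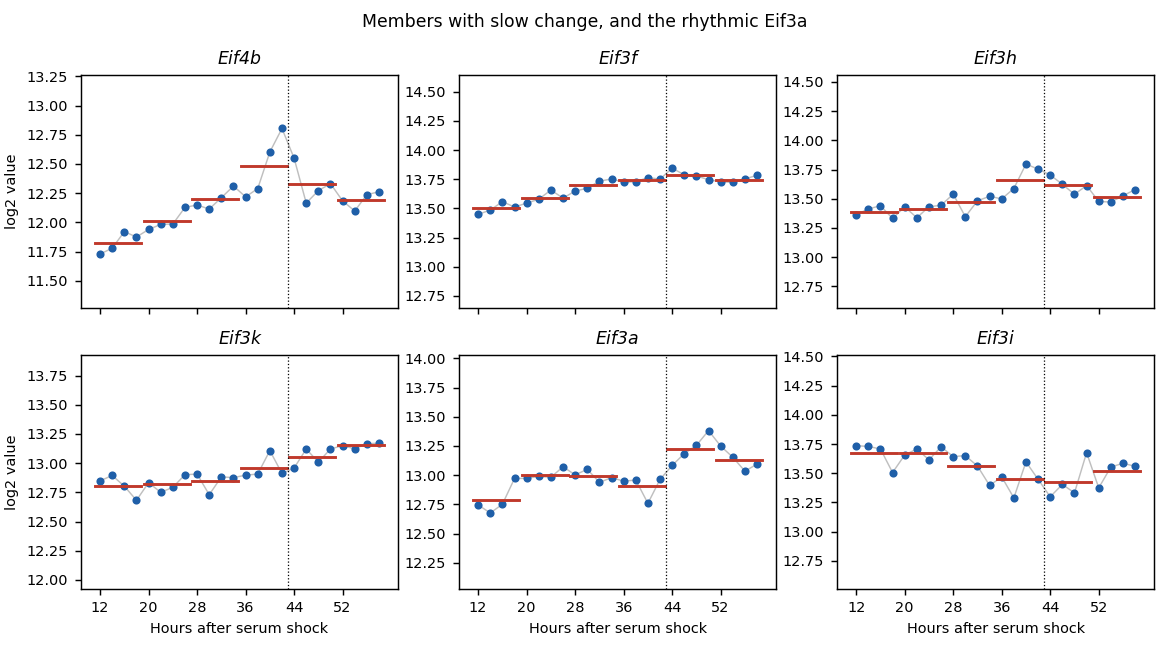
Points are log2 values of 1 array each against hours after serum shock for Eif4b, Eif3f, Eif3h, Eif3k, Eif3a and Eif3i, red lines are means of 4 arrays and the dotted line marks the border between 42 and 44 h; each panel has its own axis. Eif4b climbs to its 42 h array and falls back, Eif3f levels off near 13.75, and Eif3a has its lowest arrays at 12 to 16 h and its highest at 50 h.

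In the first hours, between 12 to 18 h and 20 to 26 h, few members were called on the probe set that stands for the gene. Of the 43, 2 rose (4.65%, against 6.95% of all genes) and 1 fell (2.33%, against 6.12%). Their median difference was 0.01, against -0.03 over all genes. Eif5a2 rose by 0.99 ± 0.25 (adjusted p = 0.0121), from 3.52, 3.93, 4.53 and 4.74 to 4.99, 5.05, 4.99 and 5.65, so its low arrays were the first 4 of the course and lay below the filter's limit. Eif3a rose by 0.22 ± 0.07 (adjusted p = 0.034) and the helicase gene Eif4a2 fell by 0.25 ± 0.07 (adjusted p = 0.017). These 3 calls depended on single arrays. Without 12 h or without 26 h limma called 0 members, with 5 at an unadjusted p under 0.05 in each case. With 24 h terms in the block model it called 0, with 1 at an unadjusted p under 0.05, and with 2 arrays on each side of the border it called 0, with 0 at an unadjusted p under 0.05. Eif3a also lost its call without 14, 16, 22 or 24 h, with a difference of 0.18 without 14 h. Its 3 other probe sets rose by 0.11 to 0.22 and did not pass. Other sets did pass for Eif4b (0.30, adjusted p = 0.0468) and Eif4e (-0.62, 0.0254). For Eif5b 1 other set rose by 0.44 (0.0456) and another fell by 0.47 (0.0411).

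A 24 h rhythm beside a linear trend was called in 1 of 43 members (2.33%), against 2.77% of all genes. This count used the probe set that stands for each gene. The median fitted amplitude was 0.08 for members and for all genes. The rhythmic member was Eif3a, the gene of a scaffold subunit of eIF3, with an amplitude of 0.14 ± 0.02 log2 units (adjusted p = 5.07e-03), a ratio of 1.22 from trough to peak and a fitted peak at 25.4 h. Its arrays read 12.75, 12.68, 12.75 and 12.97 at 12 to 18 h, 12.97, 12.99, 12.98 and 13.07 at 20 to 26 h and between 12.94 and 13.05 at 28 to 34 h. They read 12.95, 12.96, 12.76 and 12.96 at 36 to 42 h, 13.08, 13.18, 13.26 and 13.38 at 44 to 50 h and 13.25, 13.15, 13.03 and 13.09 at 52 to 58 h. The values rose once early, were flat from 18 to 38 h apart from small scatter and had their maximum at 50 h. The call held in each of 24 fits without 1 array. Another probe set of Eif3a passed too, with an amplitude of 0.13 ± 0.03 (adjusted p = 0.0326). Its remaining sets, at 0.11 ± 0.03 (adjusted p = 0.0573) and 0.10 ± 0.05 (0.358), did not.

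The rhythm count depended on how slow change was modelled. With a quadratic trend in place of the linear one 13 of the 43 members were called, a larger share than the 12.1% of all genes. Without 12 to 18 h it was also 13 of the 43, a larger share than the 15.9% of all genes. Eif3c, Eif5 and Eif6, all of them members of the step, had the 3 smallest adjusted p-values besides Eif3a in the fit without 12 to 18 h. In a course of under 2 cycles a step and a slow cycle cannot be told apart for such genes. Members that did not pass at the step were called too, among them Eif1b, Eif2s3x, Eif3h and Eif4a2 in both fits. Eif4a2 was also called without 44 to 58 h, with an amplitude of 0.15 ± 0.03 (adjusted p = 0.0095). With all arrays and a linear trend it had 0.12 ± 0.03 (0.0625).

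Of 19 tested partners of initiation, 11 (57.9%, against 20.5% of all genes) rose and 1 (5.26%, against 12.7%) fell at 44 h. At matched hours limma called 12 (63.2%, against 21% of all genes) higher and 0 lower (15.3% of all genes), with 14 at an unadjusted p under 0.05. The gene Eif4ebp1, for another 4E-binding protein and a known target of ATF4, rose by 1.10 ± 0.09 (adjusted p = 6.82e-09) at the step and 0.92 ± 0.09 (9.71e-08) at matched hours. This was opposite in sign to Eif4ebp2. Pabpc4, which encodes a poly(A)-binding protein, rose by 0.44 ± 0.07 (9.45e-05) at the step, 0.61 ± 0.07 (1.31e-06) at matched hours and 0.90 ± 0.10 over 46 h (2.03e-07). Pabpc1 rose by 0.58 ± 0.09 over 46 h, where limma called 7 partners higher (36.8%, against 26.3% of all genes) and 0 lower (16.4% of all genes), with 8 at an unadjusted p under 0.05. Early, 1 partner (5.26%, against 6.12% of all genes) fell, Paip1 (-0.28 ± 0.07, adjusted p = 0.0137), which encodes a protein that binds the poly(A)-binding protein, while Paip2 had -0.17 ± 0.06. No partner was called rhythmic by limma (2.77% of all genes were), with 5 at an unadjusted p under 0.05, and Pabpc4 and Ddx3x, a helicase gene, had amplitudes of 0.13 and 0.12.

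Genes that control eIF2 and eIF4E were taken as another list, with 24 tested. At the step 8 (33.3%, against 20.5% of all genes) rose and 3 (12.5%, against 12.7%) fell. At matched hours 10 (41.7%, against 21%) were higher and 5 (20.8%, against 15.3%) lower, and over 46 h 8 (33.3%, against 26.3%) rose and 3 (12.5%, against 16.4%) fell. Trib3, a pseudokinase gene induced by ATF4 and CHOP, went from 6.54 ± 0.12 (SD, n = 4 arrays) at 36 to 42 h to 11.27 ± 0.32 at 44 to 50 h, a rise of 4.74 ± 0.17 (26.7-fold, adjusted p = 2.14e-15). Ddit3, the gene of CHOP, went from 10.08 ± 0.20 to 12.15 ± 0.21, a rise of 2.07 ± 0.11 (4.19-fold, adjusted p = 1.56e-12). At matched hours they were higher by 4.88 ± 0.17 and 2.30 ± 0.11. Over 46 h Ddit4 and Sesn2, stress-induced genes whose products restrain mTOR, rose by 1.41 ± 0.07 (3.14e-12) and 1.90 ± 0.17 (1.09e-08). Early, 2 of this list (8.33%, against 6.95% of all genes) rose and 1 (4.17%, against 6.12%) fell, with Ddit3 at -0.50 ± 0.11 and Sesn2 at 0.43 ± 0.11. The kinase gene Mknk2, whose product phosphorylates eIF4E, was the one rhythmic gene of the list (amplitude 0.17 ± 0.04, adjusted p = 0.0367), 4.17% of it against 2.77% of all genes, and Ppp1r15b, for a subunit of the eIF2 phosphatase, had an amplitude of 0.14 (adjusted p = 0.111).

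Of 20 genes of elongation, termination, eIF5A hypusination and mitochondrial translation, 6 (30%, against 20.5% of all genes) rose and 1 (5%, against 12.7%) fell at the step. At matched hours 7 (35%, against 21%) were higher and 1 (5%, against 15.3%) was lower, and over 46 h 6 (30%, against 26.3%) rose and 2 (10%, against 16.4%) fell. Dhps, for the first enzyme of eIF5A hypusination, rose by 0.77 ± 0.11 (adjusted p = 1.72e-05) at the step after a fall of 0.44 ± 0.11 (0.0105) early. Eef1e1, for a scaffold of the tRNA synthetase complex, rose by 0.61 ± 0.09 (1.52e-05) at the step and was higher by 0.76 ± 0.09 at matched hours. Etf1, the gene of the release factor eRF1, rose by 0.64 ± 0.11 over 46 h and was higher by 0.50 ± 0.06 at matched hours. Eef1b2, for the exchange factor of eEF1A, rose by 0.31 ± 0.04 over 46 h (6.67e-06). Early, 2 of the list (10%, against 6.95% of all genes) rose and 1 (5%, against 6.12%) fell, with the elongation factor gene Eef2 at 0.19 ± 0.06. The kinase gene Eef2k, whose product inhibits eEF2, was the one rhythmic gene of the list (0.24 ± 0.04, adjusted p = 0.0107), 5% of it against 2.77% of all genes, and the release factor gene Gspt1 had an amplitude of 0.10 (adjusted p = 0.0686).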

How the data were processed

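RNA of 24 samples of the MMH-D3 course was hybridized to Affymetrix mouse arrays of 1 colour, 1 per time point. The authors deposited 1 table of log2 values per probe set, obtained, per the submitters' processing notes, with GCRMA, which corrects background by probe sequence, normalizes and summarizes. Its version and settings are not given in the sources used here. That values are log2 was read from their range, and the lowest value, 2.17, is only an upper bound for a transcript.

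GEO's platform annotation, which can be old, named 1 gene for 34958 of 45101 probe sets, several for 932 and none for 9211. It gave 130 probe sets to the 46 members, whose symbols all equalled RefSeq's, and 96 of these passed the filter. Levels of different probe sets were not compared. Models were fitted to 18526 probe sets with limma 3.58.1 in R 4.3.3, with a variance prior that follows intensity, and Benjamini-Hochberg adjustment over all of them, threshold 0.05. One model held a linear term over 46 h with the cosine and sine of 24 h, and the other 6 means of 4 arrays. Errors are standard errors of the fit, and the spread within a block also holds change over time. The number of arrays limits the precision. The tests were checked on simulated data with independent noise and changes of the fitted forms. That check does not cover dependence between neighbouring hours, nor whether a step is called a rhythm.

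The members, blocks and gene lists were chosen with earlier results of these data known. Named were the 5 called members of smallest adjusted p per test, the extremes of each complex at the step, members called against the rest of their complex, members below the filter, and per partner list and test the 2 genes of smallest p. Other members are named to account for their complex. Array values are given for the 8 largest called differences at the step and for the rhythmic member, and those of Eif4b and the block means of other drifting members were added after their values were seen. Alternatives covered normalization, filter, variance prior, probe set, trend, harmonic terms, block width and the arrays used.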

Additional observations from a re-analysis of the deposited data

How the results depend on the processing

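The 14 calls at the step became 13 with quantile normalization, 12 with arrays centred on their median, 11 without the filter, 14 with 1 variance prior and 11 with 2 arrays on each side, but 8 with 24 h terms in the block model. With 2 arrays on each side Eif3d, Eif4ebp2, Eif4g3 and Eif6 lost their calls, and Eif4b was called lower (-0.35 ± 0.10, adjusted p = 0.0167). Centring moved the median difference of all probe sets at the step from 0.05 to -0.02 and the split of the members from 13 higher and 1 lower to 10 and 2, and that of the linear calls from 18 and 6 to 14 and 8. Without the filter the linear calls were 16 higher and 2 lower. With quantile normalization Eif2b4 was called lower early (-0.33, adjusted p = 0.0364) and Eif2b5 lower in the linear term (-0.19, 0.0476). With centred arrays they were called lower as well (-0.32, 0.0469, and -0.20, 0.041). Leaving out single arrays gave 11 to 14 calls at the step, 10 to 14 at matched hours, 20 to 27 for the linear term, 0 to 4 early and 1 to 3 for rhythm.

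Rhythm was called in 2 members with centred arrays, 13 with a quadratic trend, 2 without 44 to 58 h and 13 without 12 to 18 h. Linear change was called in 11 without 44 to 58 h, and the early difference in 0 with 24 h terms and in 0 with 2 arrays on each side; the cause was not tested. With the second probe set, slopes took the opposite sign for Eif2a (0.16), Eif3i (0.070), Eif3l (-0.0088) and Eif4ebp2 (0.15), as did Eif6 at the step (-0.00061) and at matched hours (-0.0041). Without 44 to 58 h the slope did so for Eif2b3 (-0.45), Eif2s2 (-0.31), Eif3c (-0.014), Eif3d (-0.050), Eif4e (-0.026) and Eif4ebp2 (0.20). Dim probe sets such as those of Eif5a2 limit what these arrays can show.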
